A study of Mus musculus with 18 samples.

Results

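The genes described are the transporters that move sterols out of cells, the liver X receptors (LXRs) that sense sterol load, and target genes of those receptors, in the livers of 18 male ICR mice. The members are Abcg5, Abcg8, Abca1, Abcg1, Nr1h3, Nr1h2, Mylip and Lpcat3, found by their symbols. They make up 8 of 19057 lines in the expression table, each on a single line. The rule has no threshold, but the family was chosen by a reading of earlier RPKM results of these same livers, so the values below describe the members and are not independent evidence for them. RPKM is a read number scaled to the length of the gene and to the mapped reads of the library. Of the 8 members, 7 were at or above 1 RPKM in all 18 livers and were tested, together with 10507 genes in all. Abcg1 reached 1 RPKM in 2 livers and was not tested.

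Each of the 6 groups held 3 livers, all from mice aged 10 weeks by their labels. Con mice ate the regular diet and received saline. AOS mice ate the regular diet and received alginate oligosaccharide (AOS), a seaweed-derived sugar polymer cut into short chains, at 10 mg/kg. HFD mice ate a high-fat diet and received saline, and HFD+AOS mice ate that diet and received AOS at 10 mg/kg. Con-FMT and A10-FMT mice ate the high-fat diet and received transplanted gut microbiota, taken from control donors for Con-FMT and from donors given AOS at 10 mg/kg for A10-FMT. The transplanted material was pooled from the small intestines of the donors, so that the recipients of a group shared a single inoculum.

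Abcg5 and Abcg8 encode partners that form a single transporter, which pumps cholesterol and plant sterols from the hepatocyte into bile and from the gut cell back into the lumen. Abca1 loads cholesterol and phospholipid onto apolipoprotein A-I to form high-density lipoprotein, and Abcg1 passes cholesterol on to particles already formed, chiefly from macrophages. Nr1h3 and Nr1h2 encode LXR alpha and LXR beta, nuclear receptors that bind oxysterols, pair with retinoid X receptors, and switch on genes for sterol removal. Among their targets, Mylip (also called Idol) is a ubiquitin ligase that limits lipoprotein uptake, and Lpcat3 puts polyunsaturated fatty acids into phospholipids.

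Abcg5 and Abcg8 lie head to head on mouse chromosome 17 (GRCm38), with Abcg5 at chr17:84658234-84683011 on the minus strand and Abcg8 at chr17:84676302-84700333 on the plus strand. The sequence between their facing starts is shown because the levels of these neighbours moved together over the livers, and the sequence before the start of Abca1 because the level of that transporter did not follow them. Both were read from the RefSeq promoter table for GRCm38.p6. In the first, a run of 109 bases at chr17:84683012-84683120 on the plus strand, capitals mark the 2 matches to the core letters GATAA, here read on the opposite strand. In the second, a run of 120 bases at chr4:53159896-53160015 on the minus strand, capitals mark a match to GGTTANNNNCGGTCA on the opposite strand, a variant of the paired LXR half-sites set 4 bases apart, which begins at position -67 from the start.
Abcg5 to Abcg8: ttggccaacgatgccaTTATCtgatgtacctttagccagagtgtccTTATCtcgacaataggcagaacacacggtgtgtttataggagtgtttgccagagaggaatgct
Abca1: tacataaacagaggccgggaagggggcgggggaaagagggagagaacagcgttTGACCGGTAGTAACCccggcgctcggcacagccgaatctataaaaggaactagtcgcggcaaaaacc

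Promoter windows running from 250 bases before to 50 bases after a start were found for 7 of the 8 members, in 9 entries. Abcg1 had no entry. The windows of Abcg5 and of the Abcg8 start that faces it overlap, and each held 3 matches to GATAA. At least 1 such match is present in 25.4% of all 32851 promoter windows, on either strand. None of the 9 windows held the single LXR half-site AGGTCA, which is present in 16.3% of all windows, or the pair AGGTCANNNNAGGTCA, which is in 5 windows in all. The variant was written down for Abca1, so that its match there was set in advance. It is in 4 windows in all. These letters are given as a description of the windows and nothing was read from them about binding.

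The other members lie apart from this pair. Abca1 is at chr4:53030787-53159895 (minus strand), Abcg1 at chr17:31057675-31117988 (plus strand), Nr1h3 at chr2:91184061-91202834 (minus strand) and Nr1h2 at chr7:44549616-44553951 (minus strand). Mylip is at chr13:45389742-45412022 (plus strand) and Lpcat3 at chr6:124663027-124704418 (plus strand). Exons of Abcg5 and Abcg8 share 82 bases on opposite strands, exons of Lpcat3 and Emg1 share 334 bases on opposite strands, and exons of Nr1h3 and Gm13783 share 34 bases on the same strand. Whether reads were counted by strand is not given in the sources used here, so reads from the shared bases cannot be told apart.

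The livers were alike in overall measures, with a summed RPKM of 692303 to 806937 and 14512 to 14982 genes above 0. Read numbers are unknown. All 6 hepatocyte markers were expressed, and their summed level was 30755 to 51869 RPKM. Con replicate 3 lay between replicates 1 and 2 for 98.0% of the 148 genes on which those livers differed by a log2 of at least 1, and AOS replicate 3 did so for 96.5% of 142 genes. The other groups gave 58.1% to 76.8% for each of their 12 livers. The best weighted mean of replicates 1 and 2 lay a median log2 of 0.067 from Con replicate 3 and 0.083 from AOS replicate 3. In the other groups this was 0.341 to 0.590. Whether Con replicate 3 and AOS replicate 3 were independent livers cannot be told from the labels. If not, the SDs of Con and AOS and the spread shared by the fits are too small. Differences that rest on Con or AOS livers are therefore also given without both of these replicates. Summed adipocyte markers (Adipoq, Plin1 and Cfd) were 27.45 RPKM in A10-FMT replicate 1, with Cfd at 22.05 and Adipoq at 4.42, and 1.84 RPKM in A10-FMT replicate 2. They were 0.08 RPKM in A10-FMT replicate 3 and 0 to 0.32 RPKM in the other 15 livers. Differences from the A10-FMT livers are also given without replicate 1. In whole liver, fewer cells of a type and less RNA per cell cannot be told apart.

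**Figure D1:**
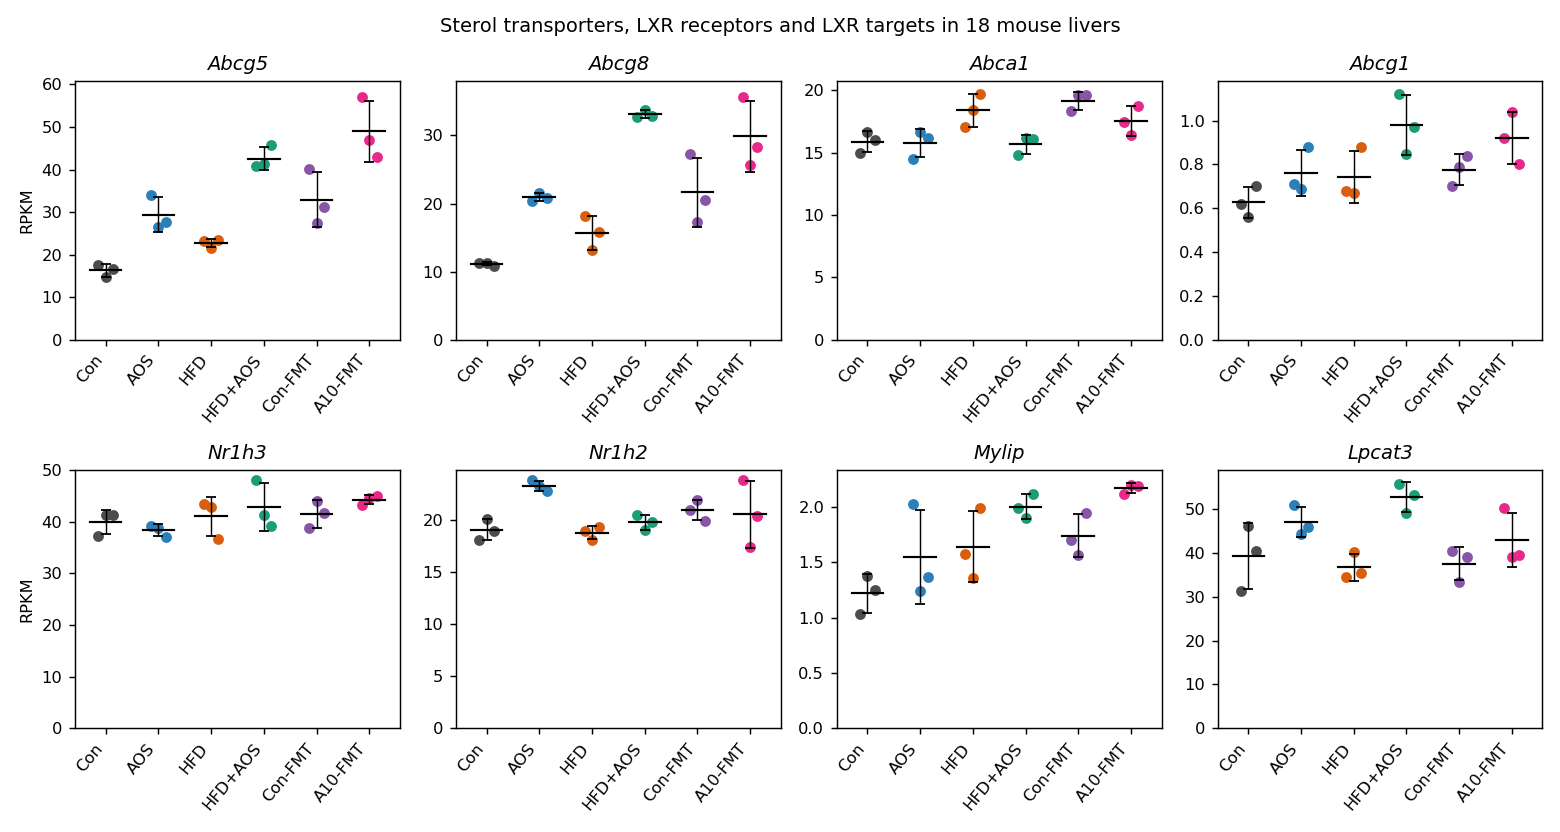
Levels of the 8 members (RPKM, linear axis from 0) in the 6 groups, with 1 point per liver, the mean as a horizontal line and the SD as error bars (n = 3). Abcg5 and Abcg8 were lowest in the Con livers, while Nr1h3 stayed between 36.75 and 48.11 RPKM over all 18 livers.

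Abcg5 and Abcg8 ranged most widely over the groups. Abcg5 was at 17.66, 14.65 and 16.62 RPKM in the Con livers and at 23.15, 21.59 and 23.46 RPKM in the HFD livers, so that the groups did not overlap. With microbiota from control donors (Con-FMT) the values were 40.22, 27.46 and 31.13 RPKM, and with microbiota from AOS-dosed donors (A10-FMT) they were 57.00, 46.92 and 43.01 RPKM. Every A10-FMT liver thus lay above every Con-FMT liver, and every Con-FMT liver above every HFD liver. Here and below, such separations describe groups of 3 livers, and the share of all genes that separate likewise was not counted. In the fits given below, neither HFD against Con nor Con-FMT against HFD reached an adjusted p under 0.05 for Abcg5. AOS itself gave 34.09, 26.40 and 27.76 RPKM on the regular diet, above all Con livers. On the HFD it gave 40.85, 41.24 and 45.65 RPKM, above all livers of the HFD group. By group means, the order rose from Con (16.3 ± 1.53 RPKM, SD, n = 3) through HFD (22.7 ± 1.00), AOS (29.4 ± 4.10), Con-FMT (32.9 ± 6.57) and HFD+AOS (42.6 ± 2.67) to A10-FMT (49.0 ± 7.22), a span of 3.00-fold. AOS and Con-FMT overlapped, as did HFD+AOS and A10-FMT.

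Abcg8, the partner, was at 11.20, 11.29 and 10.88 RPKM in the Con livers and at 18.13, 13.18 and 15.79 RPKM in the HFD livers. The Con-FMT livers had 27.23, 17.24 and 20.50 RPKM and the A10-FMT livers 35.70, 25.64 and 28.37 RPKM. Here the transplanted groups overlapped each other, and Con-FMT also overlapped HFD. The AOS livers had 20.43, 21.57 and 20.84 RPKM and the HFD+AOS livers 32.64, 33.76 and 32.88 RPKM. The 3 livers of each of these groups lay close together and above all Con and HFD livers. The group means rose from Con (11.1 ± 0.215 RPKM) through HFD (15.7 ± 2.48), AOS (20.9 ± 0.577), Con-FMT (21.7 ± 5.09) and A10-FMT (29.9 ± 5.2) to HFD+AOS (33.1 ± 0.590), a span of 2.98-fold. Con, HFD and AOS did not overlap, while each later neighbour in this order overlapped the one before it.

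The Abcg5 to Abcg8 ratio of RPKM in the same liver was 1.22 to 1.83, with a median of 1.5. It was lowest in HFD+AOS (1.29 ± 0.0889) and highest in A10-FMT (1.65 ± 0.163), and no test of this ratio was made. On log2(RPKM + 1), Abcg5 and Abcg8 gave a Pearson r of 0.955 and a Spearman rho of 0.915 over the 18 livers. Without the 2 livers farthest from the median of Abcg5, r was 0.944. After subtraction of the group means, r was 0.670. These points share groups, libraries and, for the 82 overlapping bases, possibly reads.

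**Figure D2:**
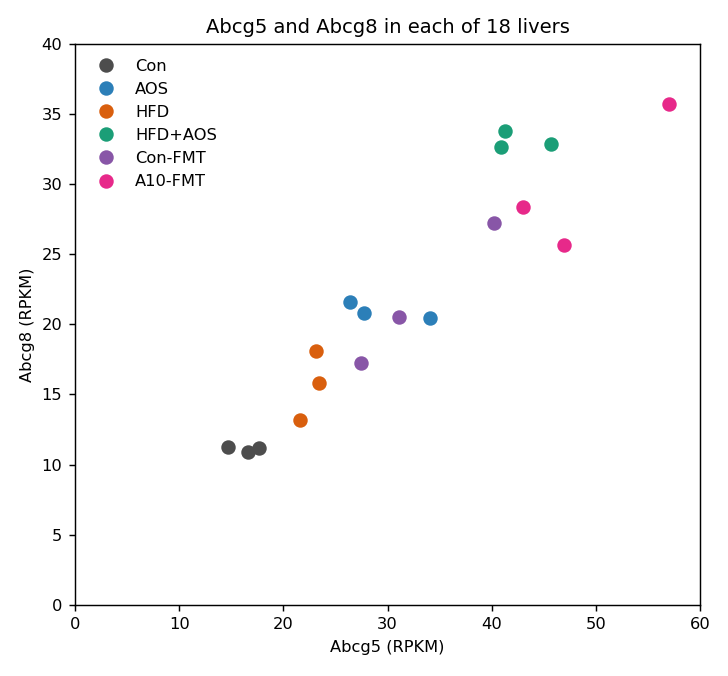
Abcg8 against Abcg5 (RPKM, both axes linear from 0), 1 point per liver, coloured by group. The 18 livers lie along a single band that runs from the Con livers at the lower left to A10-FMT replicate 1, at 57.00 and 35.70 RPKM, at the upper right.

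Differences were fitted with limma over all 18 livers on log2(RPKM + 1), with Benjamini-Hochberg adjustment over the 10507 genes. A gene passed at an adjusted p under 0.05. HFD against Con asks what the diet did. None of the 7 tested members passed (0 of 7 by limma, with 4 at an unadjusted p under 0.05), where 0.381% of all genes did. Of all 10507 genes, 1623 had an unadjusted p under 0.05. Abcg5 differed by 0.46 (SE 0.13, adjusted p = 0.128), Abcg8 by 0.45 (SE 0.14, adjusted p = 0.155), Mylip by 0.25 (SE 0.11, adjusted p = 0.300) and Abca1 by 0.20 (SE 0.08, adjusted p = 0.223), each toward the HFD. Without Con replicate 3 and AOS replicate 3, the differences for Abcg5, Abcg8, Mylip and Abca1 were 0.47, 0.44, 0.26 and 0.21, and 0 members and 0 of all genes passed.

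AOS against Con asks what AOS did on the regular diet. Abcg5 rose by 0.81 (SE 0.13, adjusted p = 0.0221) and Abcg8 by 0.86 (SE 0.14, adjusted p = 0.0221), so that 2 of 7 members passed, where 0.133% of all genes did. Both calls held without Con replicate 2 (adjusted p = 0.0252 and 0.0198) and with only the AOS and Con livers fitted (adjusted p = 0.0339 and 0.00463), but not in several other fits. Without Con replicate 3 and AOS replicate 3 the differences were 0.86 and 0.84, both with an adjusted p of 0.460, and 0 genes passed in all (918 at an unadjusted p under 0.05). Leaving out any 1 of AOS replicate 1, AOS replicate 3, Con replicate 1 or Con replicate 3 likewise left both genes short of it (differences of 0.70 to 0.87, adjusted p = 0.0840 to 0.142), as did leaving out AOS replicate 2 for Abcg8 (adjusted p = 0.0776). Of all genes, 5 passed without AOS replicate 1, 11 without AOS replicate 2, and 0 without AOS replicate 3, Con replicate 1 or Con replicate 3. Setting the median of each liver equal gave 0.74 and 0.79 (adjusted p = 0.0573 and 0.0712), and 10 of all genes passed.

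HFD+AOS against HFD asks the same on the high-fat diet. Abcg5 rose by 0.88 (SE 0.13, adjusted p = 0.00111), Abcg8 by 1.04 (SE 0.14, adjusted p = 0.000426) and Lpcat3 by 0.51 (SE 0.13, adjusted p = 0.0248). These were 3 of 7 members, where 8.75% of all genes passed. Without Con replicate 3 and AOS replicate 3, which enter through the shared spread, 2 members and 495 of all genes passed. The effect of AOS on the HFD exceeded that on the regular diet by 0.07 for Abcg5 (SE 0.19, 95% interval -0.33 to 0.47, adjusted p = 0.897) and 0.18 for Abcg8 (SE 0.20, interval -0.24 to 0.61, adjusted p = 0.688). Without those replicates it was 0.02 and 0.20 (adjusted p = 0.984 and 0.811). By limma, 0 of 7 members passed for this difference, with 0 at an unadjusted p under 0.05, where 0.504% of all genes passed. An unadjusted p under 0.05 was found for 1541 of all 10507 genes.

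A10-FMT against HFD asks what microbiota from AOS-dosed donors did. Abcg5 rose by 1.07 (SE 0.13, adjusted p = 0.000236) and Abcg8 by 0.89 (SE 0.14, adjusted p = 0.00168), 2 of 7 members, where 6.60% of all genes passed. Without A10-FMT replicate 1, the liver with the adipocyte markers, both still passed, with an adjusted p of 0.00192 for Abcg5 and 0.0115 for Abcg8. When only the HFD and A10-FMT livers were fitted, the adjusted p of Abcg8 lay just above 0.05.

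Con-FMT against HFD asks the same for microbiota from control donors. Abcg5 differed by 0.50 (SE 0.13, adjusted p = 0.489) and Abcg8 by 0.43 (SE 0.14, adjusted p = 0.623). By limma, 0 of 7 members passed, with 2 at an unadjusted p under 0.05, where 0.00952% of all genes passed. An unadjusted p under 0.05 was found for 697 of all 10507 genes. The comparisons with HFD share the same 3 HFD livers.

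A10-FMT against Con-FMT compares recipients of the AOS donor pool with recipients of the control donor pool. Each group shared a single inoculum. Here, as against HFD, the p values thus measure the spread of recipients and not of donors. Abcg5 was higher in A10-FMT by 0.57 (SE 0.13, adjusted p = 0.0426), 1 of 7 members, where 1.68% of all genes passed, and Abcg8 by 0.46 (SE 0.14, adjusted p = 0.122). The call for Abcg5 was lost without A10-FMT replicate 1 (0.45, adjusted p = 0.190), A10-FMT replicate 2 (0.59, adjusted p = 0.131), Con-FMT replicate 2 (0.45, adjusted p = 0.222) or Con-FMT replicate 3 (0.54, adjusted p = 0.105). In these fits, in the same order, 66, 58, 51 and 154 of all genes passed. The Abcg5 call was also lost with no filter on low values (adjusted p = 0.0743), with only these livers fitted (adjusted p = 0.247) and without Con replicate 3 and AOS replicate 3 (adjusted p = 0.0931). Without Con-FMT replicate 1, Abcg8 passed (0.63, adjusted p = 0.0258). The part of the adipocyte markers in the difference between the transplanted groups was not tested.

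**Figure D3:**
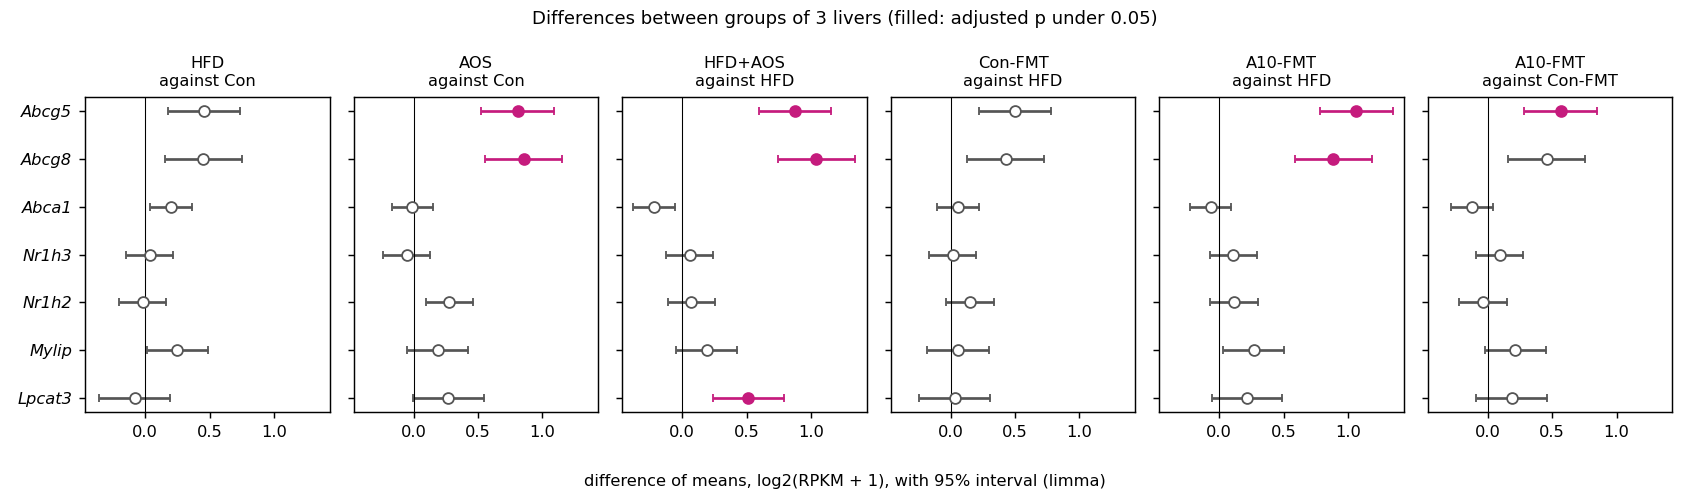
Differences between groups for the 7 tested members, as the difference of means on log2(RPKM + 1) with its 95% interval from limma, with 1 panel per comparison. Filled points passed at an adjusted p under 0.05, and they fall on Abcg5 and Abcg8 apart from a single point for Lpcat3 in HFD+AOS against HFD.

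Abca1, the other abundant sterol exporter, did not share this pattern. It was at 14.99, 16.65 and 16.01 RPKM in the Con livers, 14.52, 16.62 and 16.17 in AOS, and 17.08, 18.43 and 19.73 in HFD. The HFD+AOS livers had 14.78, 16.16 and 16.06 RPKM, the Con-FMT livers 18.33, 19.59 and 19.59, and the A10-FMT livers 17.45, 16.41 and 18.75. The HFD and Con-FMT livers thus lay above all Con livers, A10-FMT overlapped Con through its replicate 2, and the AOS and HFD+AOS livers spanned values much like those of Con. HFD+AOS against HFD gave -0.22 (SE 0.08, adjusted p = 0.0831), which passed only without HFD replicate 1 among the livers left out in turn (-0.27, adjusted p = 0.0450). Its group means spanned 1.22-fold, and over the 18 livers r between Abca1 and Abcg5 was 0.01.

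Abcg1 was low throughout, mostly below the level set for testing. The values were 0.62, 0.56 and 0.70 RPKM in Con, 0.71, 0.69 and 0.88 in AOS, and 0.68, 0.67 and 0.88 in HFD. They were 1.12, 0.85 and 0.97 RPKM in HFD+AOS, 0.70, 0.79 and 0.84 in Con-FMT, and 0.92, 1.04 and 0.80 in A10-FMT. Each group overlapped at least 1 other. In a fit without the filter on low values the widest of its differences from HFD was 0.18 (HFD+AOS, SE 0.07, adjusted p = 0.164). Because Abcg1 is known from macrophages, the 11 macrophage and Kupffer cell markers were summed. All were found, and the sums ranged over 132 to 199 RPKM in Con, 164 to 226 in AOS, 92.8 to 214 in HFD, 136 to 156 in HFD+AOS, 99.7 to 129 in Con-FMT and 103 to 129 in A10-FMT. Their part in the Abcg1 values was not tested.

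The receptors varied little. Nr1h3 (LXR alpha) was at 37.30, 41.22 and 41.33 RPKM in Con, 39.26, 38.85 and 37.14 in AOS, and 43.51, 42.94 and 36.75 in HFD. The HFD+AOS livers had 48.11, 41.27 and 39.23 RPKM, the Con-FMT livers 38.77, 44.09 and 41.69, and the A10-FMT livers 43.32, 44.52 and 44.97. All HFD groups overlapped Con except A10-FMT, and the group means, from 38.4 RPKM in AOS to 44.3 RPKM in A10-FMT, spanned 1.15-fold. The intervals of its differences bound the change. A10-FMT against HFD gave 0.11 (SE 0.09, 95% interval -0.07 to 0.29) and HFD+AOS against HFD 0.06 (SE 0.09, interval -0.12 to 0.24), with an adjusted p of 0.460 and 0.710. Without A10-FMT replicate 1 the former was 0.12 (adjusted p = 0.533).

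Nr1h2 (LXR beta) was at 18.11, 20.11 and 18.95 RPKM in Con, 18.91, 18.09 and 19.31 in HFD, and 20.47, 18.99 and 19.84 in HFD+AOS. The AOS livers, with 23.79, 23.25 and 22.82 RPKM, lay above all of these. The transplanted groups had 20.99, 21.87 and 19.94 RPKM (Con-FMT) and 23.80, 17.41 and 20.38 RPKM (A10-FMT), the latter with a spread wider than in any other group (SD 3.20 RPKM). AOS against Con gave 0.28 (SE 0.09, adjusted p = 0.166) and 0.29 without Con replicate 3 and AOS replicate 3 (adjusted p = 0.530), and did not pass. Nr1h3 exceeded Nr1h2 per length in every liver, by 1.63 to 2.56 times. That ratio was 1.65 ± 0.0217 in AOS and 2.10 ± 0.0731 in Con, and it was not tested.

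Mylip, the ubiquitin ligase, was the lowest of the tested members. The Con livers had 1.03, 1.38 and 1.25 RPKM, the AOS livers 2.03, 1.24 and 1.37, and the HFD livers 1.58, 1.36 and 1.99. HFD+AOS livers had 1.99, 1.90 and 2.12 RPKM, Con-FMT livers 1.70, 1.57 and 1.95, and A10-FMT livers 2.12, 2.2 and 2.19. A10-FMT lay above all Con, HFD and Con-FMT livers, but the differences did not pass, with 0.27 against HFD (SE 0.11, adjusted p = 0.153) and 0.21 against Con-FMT (SE 0.11, adjusted p = 0.355). Without A10-FMT replicate 1 they were 0.28 and 0.22 (adjusted p = 0.267 and 0.536). On a scale of log2(RPKM + 1) the change of so low a gene is understated. The group means themselves ran from 1.22 RPKM in Con to 2.17 RPKM in A10-FMT, 1.78-fold.

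Lpcat3 was at 31.37, 46.12 and 40.43 RPKM in Con, 50.85, 44.40 and 46.00 in AOS, and 34.43, 40.25 and 35.43 in HFD. The HFD+AOS livers, with 55.79, 49.13 and 53.32 RPKM, all lay above the HFD livers. The Con-FMT livers had 40.34, 33.29 and 39.03 RPKM and the A10-FMT livers 50.18, 39.09 and 39.59, both groups overlapping HFD. The call in HFD+AOS against HFD was lost without HFD replicate 3 (adjusted p = 0.0892), HFD+AOS replicate 1 (adjusted p = 0.0969) or HFD+AOS replicate 3 (adjusted p = 0.0605), and without Con replicate 3 and AOS replicate 3 (adjusted p = 0.0509). AOS against Con gave 0.27 for this enzyme (SE 0.13, adjusted p = 0.335), and the difference between diets was 0.24 (SE 0.18, adjusted p = 0.554). Without Con replicate 3 and AOS replicate 3 these were 0.31 and 0.20 (adjusted p = 0.621 and 0.785).

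The genes whose levels ran most nearly with each member were found by Pearson correlation on log2(RPKM + 1) over the 18 livers, which share groups and libraries, and are given as a description. For Abcg5 the nearest gene of all tested was Abcg8, followed by Nr1d2 (r = 0.938), a nuclear receptor of the circadian clock, and Aqp9 (r = 0.935), the glycerol channel of hepatocytes. For Abcg8 they included Abcg5 and Nr1d2 (r = 0.937). Nr1d2 averaged 2.52 RPKM in Con, 8.32 in AOS, 4.62 in HFD, 20.1 in HFD+AOS, 10.3 in Con-FMT and 18.5 in A10-FMT, the same order of group means as for Abcg8. The labels give no hour of collection, and its part in these levels was not tested.

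Abca1 ran with other genes, namely Ccdc117 (r = 0.890), Dnaja1 (r = 0.853) and Hsph1 (r = 0.845), the latter both encoding chaperones of the heat shock response. Mylip ran with Reln (r = 0.910), a stellate cell marker, and with Actn1 and Herpud1 (r = 0.904 and 0.897). Lpcat3 ran with Aspg, Sema4g and Gpr157 (r = 0.897, 0.884 and 0.870), and Abcg1 with Rhbdd2, Bgn and Actn1 (r = 0.863, 0.849 and 0.849). The receptors had lower maxima, with Lrrc14, Aimp2 and Slc26a1 for Nr1h3 (r = 0.826, 0.812 and 0.804) and Ctns, Usp21 and Itpr2 for Nr1h2 (r = 0.816, 0.799 and 0.780).

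Around the members stand 84 other genes of sterol handling and LXR signalling, in 7 lists that cover receptor partners, oxysterol enzymes, other LXR targets, other sterol transport, lipoprotein receptors and their control, lysophospholipid acyltransferases, and other ABCA and ABCG transporters. Of these, 68 were tested. In HFD against Con, 3 of 68 passed and all rose, where 0.381% of all genes passed, and the median difference was 0.05, as over all genes. They were Npc1 (0.55, SE 0.09), which exports cholesterol from lysosomes, Abcb4 (0.78, SE 0.14), which sends phosphatidylcholine into bile, and Lclat1 (0.51, SE 0.10), an acyltransferase of cardiolipin. The count was 0 without any 1 of Con replicate 1, Con replicate 3 or the HFD livers, 6 without Con replicate 2, and 0 without Con replicate 3 and AOS replicate 3 together, when the differences were 0.56, 0.78 and 0.47. Of all genes, 0 passed without Con replicate 1, without Con replicate 3, or without Con replicate 3 and AOS replicate 3 together. The numbers were 178 without Con replicate 2, and 16, 9 and 17 without HFD replicates 1, 2 and 3. In AOS against Con and in Con-FMT against HFD 0 passed by limma, with 16 and 6 at an unadjusted p under 0.05, although 5 passed in AOS against Con without Con replicate 2. Of all 10507 genes, 1633 and 697 had an unadjusted p under 0.05 in these comparisons. In AOS against Con without Con replicate 2, 132 of all genes passed.

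With AOS on the HFD, 5 of 68 passed and all rose, a share near the 8.75% of all genes that passed. Srebf1, which encodes the lipogenic factor SREBP-1 and is itself an LXR target, was at 42.60, 44.35 and 44.25 RPKM in HFD and at 87.26, 83.39 and 79.61 RPKM in HFD+AOS, a rise of 0.92 (SE 0.20, adjusted p = 0.0136). Npc1 was at 23.00, 21.99 and 22.89 RPKM in HFD and at 35.13, 36.04 and 35.11 RPKM in HFD+AOS, a rise of 0.62 (SE 0.09, adjusted p = 0.000995). Neither gene overlapped between these groups. Stard5, a sterol-binding protein of the cytosol, rose by 0.43 (SE 0.12, adjusted p = 0.0339) and Apoc1, an apolipoprotein under LXR control, by 0.48 (SE 0.14, adjusted p = 0.0464). Usp2, a deubiquitinase reported to act on the Mylip protein and also a gene of circadian output, rose by 1.88 (SE 0.23, adjusted p = 0.000191). The median over the 68 was 0.05, against -0.01 over all genes. The count was 2 without HFD+AOS replicate 1, and 3 without HFD replicate 3, without HFD+AOS replicate 3, or without Con replicate 3 and AOS replicate 3. In those fits, in the same order, 325, 321, 618 and 495 of all genes passed.

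In A10-FMT against HFD, 5 of the 68 rose and 4 fell, where 6.60% of all genes passed (275 higher and 418 lower, and 603 and 467 with equal liver medians), and the median was -0.05, against -0.03 over all genes. Srebf1, at 77.69, 90.39 and 87.63 RPKM, rose by 0.94 (SE 0.20, adjusted p = 0.0119), and Npc1, at 31.74, 30.71 and 32.47 RPKM, by 0.47 (SE 0.09, adjusted p = 0.00809). Usp2 rose by 2.50 (SE 0.23), Stard5 by 0.48 (SE 0.12) and Apoc1 by 0.57 (SE 0.14). The comparisons of A10-FMT and of HFD+AOS with HFD share their HFD livers. Abca2, an endolysosomal lipid transporter, fell by 0.34 on the log2 scale (adjusted p = 0.0176), and Abca8b, of the same family, fell by 0.60 (adjusted p = 0.0191). Ncor1, a corepressor of nuclear receptors, and Abca3, named after their values were seen because they complete the list, fell by 0.33 and 0.36 (adjusted p = 0.0375 and 0.0413). Leaving out A10-FMT replicates 1, 2 and 3 in turn, the number of the 68 that passed was 5, 2 and 14, and for HFD replicates 1, 2 and 3 it was 14, 5 and 3. In the same fits 288, 269 and 1217 of all genes passed, and 1075, 323 and 335. The 5 that passed without A10-FMT replicate 1 were Usp2 (2.42), Srebf1 (1.01), Npc1 (0.46), Abca2 (-0.36) and Abca8b (-0.75), while Stard5 gave 0.47 and Apoc1 0.50 (adjusted p = 0.0791 and 0.108), and Ncor1 and Abca3 -0.36 and -0.35 (adjusted p = 0.0780 and 0.116).

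In A10-FMT against Con-FMT, only Usp2 of the 68 passed (2.37, SE 0.23, and 2.29 without A10-FMT replicate 1), where 1.68% of all genes did, and 20 had an unadjusted p under 0.05. The count was 2 without A10-FMT replicate 1 and 7 when replicate 3 of that group was left out. Usp2 averaged 1.66 RPKM in Con, 0.67 in AOS, 0.95 in HFD, 6.03 in HFD+AOS, 1.09 in Con-FMT and 10.4 in A10-FMT. Abcg5 averaged 32.9 RPKM in Con-FMT and 29.4 RPKM in AOS. Nr1d2, the clock gene named above, averaged 10.3 RPKM in Con-FMT and 8.32 in AOS, against 4.62 in HFD and 2.52 in Con. How these genes relate to each other was not tested.

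**Figure D4:**
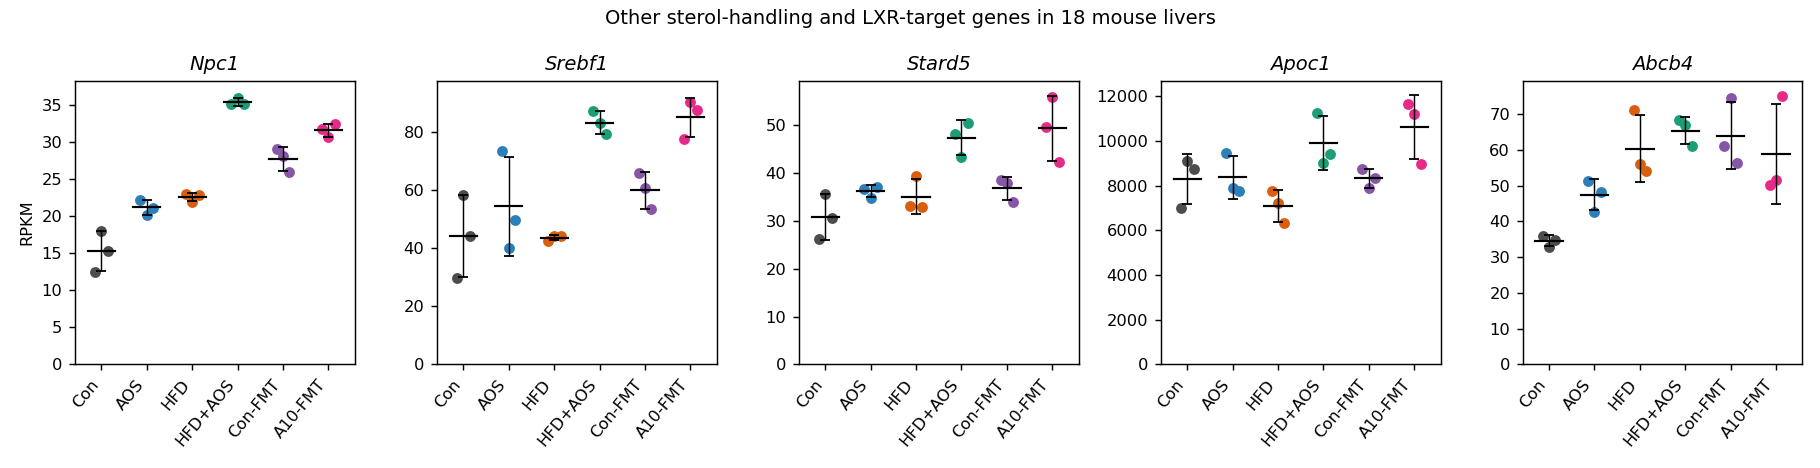
Levels of Npc1, Srebf1, Stard5, Apoc1 and Abcb4 (RPKM, linear axes from 0) in the 6 groups, with 1 point per liver, the mean as a line and the SD as error bars (n = 3). The HFD+AOS and A10-FMT livers are the highest for Npc1 and Srebf1, while Abcb4 lies lowest in Con.

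As a reference, 11 genes of cholesterol synthesis and its control that answer to low sterol through SREBP-2 were read in the same way. In A10-FMT against HFD, 2 of 11 passed, both lower, where 6.60% of all genes did. All 11 differences were below 0, 9 had an unadjusted p under 0.05, and the median was -0.77, against -0.03 over all genes. Of all 10507 genes, 2571 had an unadjusted p under 0.05. Without A10-FMT replicate 1, 0 of 11 passed by limma, 3 had an unadjusted p under 0.05 and the median was -0.53. Without A10-FMT replicate 2, 0 passed (4 at an unadjusted p under 0.05), and without A10-FMT replicate 3, 10 passed. Of all genes, 288, 269 and 1217 passed without A10-FMT replicates 1, 2 and 3 in turn. In these fits 1878, 1857 and 2969 of all genes had an unadjusted p under 0.05. The count of the 11 that passed was 4 without HFD replicate 1, and 1 without HFD replicate 2, HFD replicate 3, or Con replicate 3 and AOS replicate 3 together. In these fits, in the same order, 1075, 323, 335 and 395 of all genes passed. With only the HFD and A10-FMT livers fitted, 0 of 11 passed (6 at an unadjusted p under 0.05), and 93 of all genes did. With no filter on low values 1 of 11 passed. In A10-FMT against Con-FMT, 1 of 11 passed, again lower, where 1.68% of all genes did, 6 had an unadjusted p under 0.05, and the median was -0.74, against -0.03. Of all 10507 genes, 1727 had an unadjusted p under 0.05 there. The number of the 11 that passed there was 0 without replicate 1 or replicate 2 of A10-FMT or any 1 Con-FMT liver, 0 without Con replicate 3 and AOS replicate 3, and 7 without A10-FMT replicate 3. Of all genes, 563 passed without A10-FMT replicate 3, and 66 and 58 without its replicates 1 and 2. With only these groups fitted, 0 of 11 passed (2 at an unadjusted p under 0.05), and 4 of all genes did. With no filter on low values 0 of 11 passed. Named after their values were seen, the genes that passed were Srebf2, the gene of SREBP-2 itself, which fell by 0.64 on the log2 scale against HFD (adjusted p = 0.0129) and fell by 0.58 against Con-FMT (adjusted p = 0.0445), and Idi1, an isomerase of the pathway, which fell by 1.27 against HFD (adjusted p = 0.0392). Sqle, which encodes squalene epoxidase, gave -1.22 against HFD (SE 0.39, adjusted p = 0.0707) and -0.86 without A10-FMT replicate 1 (adjusted p = 0.279). In the other 5 comparisons 0 of 11 passed, with 0 at an unadjusted p under 0.05, and the medians lay between -0.16 and 0.04. Of all 10507 genes, 697 to 2754 had an unadjusted p under 0.05 in those comparisons.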

How the data were processed

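Liver RNA was sequenced from 18 mice in 6 groups of 3. The authors mapped the reads and deposited RPKM values, rounded to 2 decimals (the unit is from the study's methods). Those methods name SOAPaligner, the submitters' processing notes Bowtie 0.12.2 and mm10. Annotation and strandedness are not given in the sources used here, and read numbers are unknown, so the counting error of low values is too.

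Genes with at least 1 RPKM in at least 3 livers were kept, 10507 of the 17109 with any value. The fit was a mean per group over all 18 livers on log2(RPKM + 1), which understates the fold of low genes (limma 3.58.1, eBayes with trend, R 4.3.3, tested on simulated data), with Benjamini-Hochberg adjustment in each comparison. DEGseq, named in the study, needs read numbers and was not run. The p values measure the spread between these livers. Tables and figures were made in Python 3.11.15, and gene positions are from GENCODE for GRCm38, matched by symbol.

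Livers with the same replicate number did not deviate together (correlations of -0.177 to 0.225), so the numbers were not taken as pairs. Alternatives were equal liver medians, a pseudocount of 0.1, no filter on low values, only the groups compared, the replicate number as a block, and livers left out. Named genes are all members, up to 5 listed genes of smallest p that passed in a comparison, the 3 genes nearest to each member by correlation, and reference genes of sterol synthesis, of which Sqle is given by name. Some genes under this rule are not reported here. The members and lists were chosen with earlier results of these data known.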

Additional observations from a re-analysis of the deposited data

Results flagged for a closer look

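The effect of AOS on Usp2 differed between the diets by 2.55 on log2(RPKM + 1) (SE 0.33, adjusted p = 0.00134 by limma, interaction term), and by 2.60 without Con replicate 3 and AOS replicate 3 (adjusted p = 0.0231). Usp2 was at 1.31, 2.01 and 1.66 RPKM in Con and at 0.82, 0.42 and 0.77 RPKM in AOS, so that every AOS liver on the regular diet lay below every Con liver. AOS against Con did not pass for Usp2 by limma. Without Con replicate 3 and AOS replicate 3 it gave -0.71 (adjusted p = 0.546). Usp2 was at 0.69, 0.61 and 1.55 RPKM in the HFD livers and at 5.96, 5.81 and 6.32 RPKM in the HFD+AOS livers. It was the only one of the 68 tested genes of sterol handling and LXR signalling to pass for this difference between diets. Usp2 is also a gene of circadian output, and the labels give no hour of collection. The part of the hour in these values was not tested.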

How the results depend on the processing

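Over 264 alternatives to 21 fold changes of members, 236 kept direction and side of the threshold, 25 lost a call, 2 gained one and 1 turned in sign (Abcg5, difference between diets, -0.0039 without AOS replicate 2, over a range of -0.0039 to 0.17 with livers left out in turn). Fold changes short of the threshold counted as kept where they stayed short of it. Of 12 alternatives each, Abcg5 lost its call in 7 for A10-FMT against Con-FMT and 6 for AOS against Con. Abcg8 lost it in 7 for AOS against Con and 1 for A10-FMT against HFD, and Lpcat3 in 4 for HFD+AOS against HFD. With the livers left out in turn, the members that passed numbered 0 to 2 in A10-FMT against Con-FMT and in AOS against Con, 2 to 4 in HFD+AOS against HFD, and 2 throughout in A10-FMT against HFD. Those of the 68 wider genes numbered 2 to 14 in A10-FMT against HFD, 1 to 7 in A10-FMT against Con-FMT, 0 to 6 in HFD against Con, 0 to 5 in AOS against Con, 2 to 6 in HFD+AOS against HFD and 1 to 3 for the difference between diets. With only the groups compared, members numbered 1 in A10-FMT against HFD and 0 in A10-FMT against Con-FMT, and wider genes 2 in A10-FMT against HFD, 0 in A10-FMT against Con-FMT and HFD against Con, 3 in HFD+AOS against HFD and 3 for the difference between diets. With no filter, members numbered 0 in A10-FMT against Con-FMT, and wider genes 1 in HFD against Con and 3 in HFD+AOS against HFD. With equal liver medians, members numbered 0 in AOS against Con, and wider genes 2 in A10-FMT against Con-FMT and 8 in HFD+AOS against HFD. Without Con replicate 3 and AOS replicate 3, members numbered 0 in A10-FMT against Con-FMT and in AOS against Con, and wider genes 0 in HFD against Con and 3 in HFD+AOS against HFD. The replicate block changed no call of a member and took the wider genes in HFD against Con to 0. The causes were not tested.

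Over all genes, the number that passed moved by more than 1.5 times from 40 in HFD against Con to 26 with no filter, 5 with the replicate block, 2 with only the groups compared and 0 without Con replicate 3 and AOS replicate 3 (1070 at an unadjusted p under 0.05). It moved from 693 in A10-FMT against HFD to 1070 with equal liver medians, 93 with only the groups compared and 395 without those replicates. In A10-FMT against Con-FMT it moved from 177 to 100 with no filter, 4 with only the groups compared and 82 without those replicates, and in AOS against Con from 14 to 41 with only the groups compared and 0 without those replicates. In HFD+AOS against HFD it moved from 919 to 468 with only the groups compared and 495 without those replicates, and for the difference between diets from 53 to 137 and 15. With livers left out in turn, it ranged over 0 to 178 in HFD against Con, 0 to 132 in AOS against Con, 269 to 1217 in A10-FMT against HFD, 51 to 563 in A10-FMT against Con-FMT, 1 to 13 in Con-FMT against HFD, 321 to 1281 in HFD+AOS against HFD and 29 to 186 for the difference between diets. Equal liver medians turned the split of the genes that passed in A10-FMT against HFD from 275 higher and 418 lower to 603 higher and 467 lower.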
